A study of Mus musculus with 2 samples.

Results

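Wide footprints are stretches of 30 bp or more inside accessible chromatin that DNase I cut less than the bases around them. They were mapped here in whole thymus of male B6CASTF1/J mice, an F1 cross of C57BL/6J with CAST/EiJ, aged 2 months. The series holds 2 samples in 1 group, replicate 1 and replicate 2, with no treatment and no control group; the labels give each sample its own animal number but a single donor identifier for both. The members were chosen by measured values, namely the deposited width and position: an entry of 30 bp or more in 1 replicate had to overlap an entry of 30 bp or more in the other by 50% of both lengths. This rule gave 14398 wide footprints, out of 112633 footprints of any width that overlapped by the same measure, and out of 291716 entries in replicate 1 and 295617 in replicate 2. Number and width are therefore descriptions, and with 1 group no test between samples was possible.

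DNase I cuts DNA that is not covered by nucleosomes, and a protein bound to its site shields the bases it covers, which leaves a footprint within the cut region. The length of a footprint follows the stretch of DNA that is shielded, so proteins with many DNA-binding fingers, several proteins side by side, and complexes at promoters can leave long ones. CTCF, a protein with a long array of zinc fingers that works with cohesin at the anchors of chromatin loops, is the classic case of a long and clear footprint. The thymus is where T cells mature, and most of its cells are thymocytes, beside epithelium, myeloid cells and vessels. In whole tissue, a site occupied in fewer cells and a site occupied more weakly in each cell cannot be told apart.

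The sequences that carry the motif results are shown first. All were read from the reference genome GRCm38.p6 (mm10), which holds the C57BL/6J allele; the CAST/EiJ allele was not read. Each line gives a wide footprint over the union of its entries in both replicates, 5′ to 3′ on the strand of the motif. Capitals mark the match to the named consensus, a description of the letters and not evidence of binding. The first set shows, for each of the 5 consensus sequences with the highest wide to narrow ratio among those in 0.5% or more of wide windows, the widest wide footprint holding a match.
H13, CTCF, chr2:152669385-152669442, plus strand: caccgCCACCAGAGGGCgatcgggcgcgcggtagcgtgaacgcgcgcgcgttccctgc
Ube2h, ZNF143, chr6:30304626-30304686, minus strand: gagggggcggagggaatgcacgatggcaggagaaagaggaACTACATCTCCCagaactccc
Mcm5, CRE, chr8:75109405-75109472, plus strand: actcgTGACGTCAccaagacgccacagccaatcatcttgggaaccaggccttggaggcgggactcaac
Rfc2, NRF1, chr5:134582603-134582664, plus strand: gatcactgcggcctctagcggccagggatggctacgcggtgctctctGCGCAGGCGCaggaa
Maco1, SP/KLF, chr4:134853351-134853421, minus strand: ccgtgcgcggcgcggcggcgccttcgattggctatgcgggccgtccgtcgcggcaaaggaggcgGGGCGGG

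All 5 lie within 1000 bp of a transcription start site (TSS) and upstream of it, at 48 bp for H13, 118 bp for Ube2h, 131 bp for Mcm5, 56 bp for Rfc2 and 41 bp for Maco1. Mcm5 encodes a subunit of the replicative helicase and Rfc2 a subunit of the clamp loader of DNA replication. Their widths were alike in the replicates: the Mcm5 footprint measured 68 bp in replicate 1 and 67 bp in replicate 2, and the Rfc2 footprint 61 bp in both.

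The second set shows CTCF matches at both ends of the width range, because the position of the match within the footprint differed between them. These footprints were chosen after their values were seen, as those in the highest peaks of their kind, and the last 3 also for fully unique sequence. The first 3 are narrower than 34 bp on average over the replicates, and the last 3 are 38 bp or wider and also hold the letters TGCANT upstream of the consensus, which are in capitals too.
Scap, chr9:110333248-110333281, plus strand: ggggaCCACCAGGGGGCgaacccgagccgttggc
Kif1b, chr4:149307902-149307933, minus strand: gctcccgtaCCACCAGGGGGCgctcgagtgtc
Dgkz, chr2:91963733-91963767, minus strand: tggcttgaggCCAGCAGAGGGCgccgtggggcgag
Mafa, chr15:75748529-75748573, minus strand: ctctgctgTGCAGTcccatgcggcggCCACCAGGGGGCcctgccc
Twistnb, chr12:33429484-33429526, minus strand: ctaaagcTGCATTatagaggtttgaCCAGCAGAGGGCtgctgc
Ddx54, chr5:120620821-120620869, plus strand: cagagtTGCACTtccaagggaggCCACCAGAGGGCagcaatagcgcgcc

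Entries of 30 bp or more were a small share of all footprints. They made up 6.65% of entries in replicate 1 (19403) and 8.38% in replicate 2 (24773), while entries under 15 bp, called narrow here, made up 73.8% and 68.7%. A wide match in the other replicate was found for 74.2% of the wide entries of replicate 1 (95% Wilson interval 73.6 to 74.8%) and for 58.1% of those of replicate 2 (57.5 to 58.7%). Narrow entries matched a narrow entry less often, in 20.1% and 21.4% of cases, which left 43353 narrow footprints in both replicates. Entries of any width matched in 38.6% and 38.1% of cases. The intervals here cover counting error only, and footprints that share a peak are not independent.

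Most wide entries without a wide match overlapped shorter footprints of the other replicate. In replicate 1, 14.4% of wide entries overlapped a single shorter entry of replicate 2 and 10.6% overlapped several shorter ones. In replicate 2 the shares were 22.2% and 13.8%. Entries that overlapped no footprint at all amounted to 0.613% in replicate 1 and 5.72% in replicate 2, where most of them (1206) also lay outside the strict peaks of replicate 1. These were 2.38% of the 5005 unmatched wide entries of replicate 1 and 13.7% of the 10375 of replicate 2. The edges of matched wide footprints were close: starts were within 2 bp of each other in 76.4% of them and ends in 76.1%, and 33.1% had the same start.

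The widths were not spread evenly. Wide entries of each replicate grew fewer from 30 bp (2081 in replicate 1 and 3181 in replicate 2) to 38 bp (733 and 710). Above 38 bp the numbers of replicate 1 were nearly level, with 667 at 44 bp, and those of replicate 2 rose to 838 at 44 bp, before both dropped to 199 and 225 at 50 bp. The wide footprints found in both replicates numbered 530 and 385 at 38 bp and 587 and 639 at 44 bp. Their highest number, 1236 and 1467 at 32 bp, has no counterpart among all entries, and the rule asks for 30 bp or more in both replicates. The median width was 37 bp (quartiles 33 and 43) in replicate 1 and 36 bp (32 and 44) in replicate 2, and the widest member measured 85 bp in both. For description, the members were split at 38 bp, a value chosen from these widths: 53.3% averaged under 38 bp, 43.7% from 38 bp to below 50 bp, and 3.05% (439) were 50 bp or more.

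**Figure D1:**
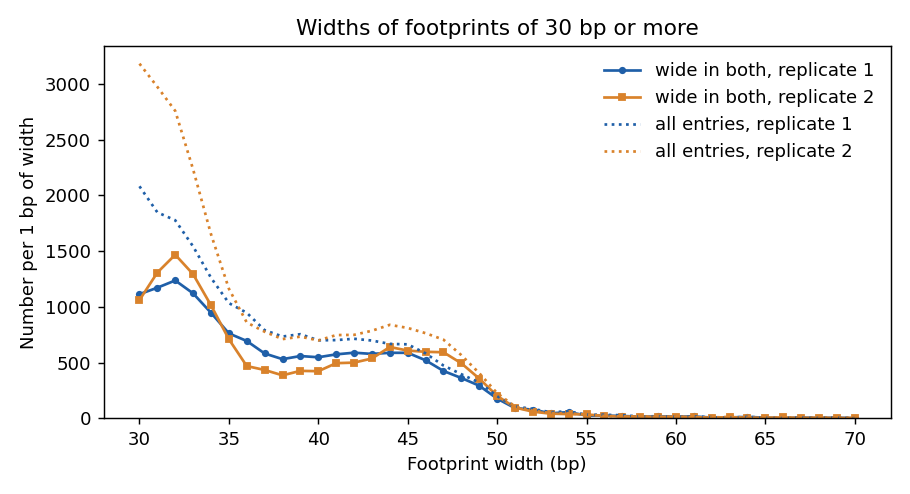
Number of footprints (y axis) by width in bp (x axis, 1 bp steps) in each replicate: solid lines with points, wide footprints found in both replicates, counted at the width they have in that replicate; dotted lines, all entries of 30 bp or more. All entries fall from 30 bp to 38 bp, and at 44 bp a shoulder follows, which in replicate 2 is a rise from 710 at 38 bp to 838.

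By place, 46.1% of wide footprints (6644, interval 45.3 to 46.96%) had their midpoint within 1000 bp of a TSS annotated in GENCODE M21. A further 26.1% lay between genes, 24.1% in introns and 3.70% in exons outside promoters. Narrow footprints were at promoters in 53.4% of cases and between genes in 19.5%, and the regions where strict peaks of both replicates overlap were at promoters in 42.6% and between genes in 24.4%. The promoter share was thus 7.21 percentage points lower for wide than for narrow footprints present in both replicates. At equal peak score, with narrow footprints reweighted to the score deciles of the wide ones, the difference was -17.7 points; by quartile of the wide footprints' score the shares were 10.7%, 18.5%, 53.1% and 92.5% for wide footprints and 27.0%, 47.4%, 74.1% and 95.1% for narrow ones in the same score ranges. These values at equal score cover only footprints in strict peaks of both replicates (91.9% of wide and 60.96% of narrow ones). They were not computed in single replicates. Without adjustment, the direction differed between single replicates. All wide entries of replicate 1 were at promoters in 50.4% of cases against 47.1% of its narrow entries, and in replicate 2 the shares were 42.7% and 45.5%. The higher intergenic share kept its direction in both, at 23.7% of wide and 21.4% of narrow entries in replicate 1 and 27.2% and 22.6% in replicate 2.

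**Figure D2:**
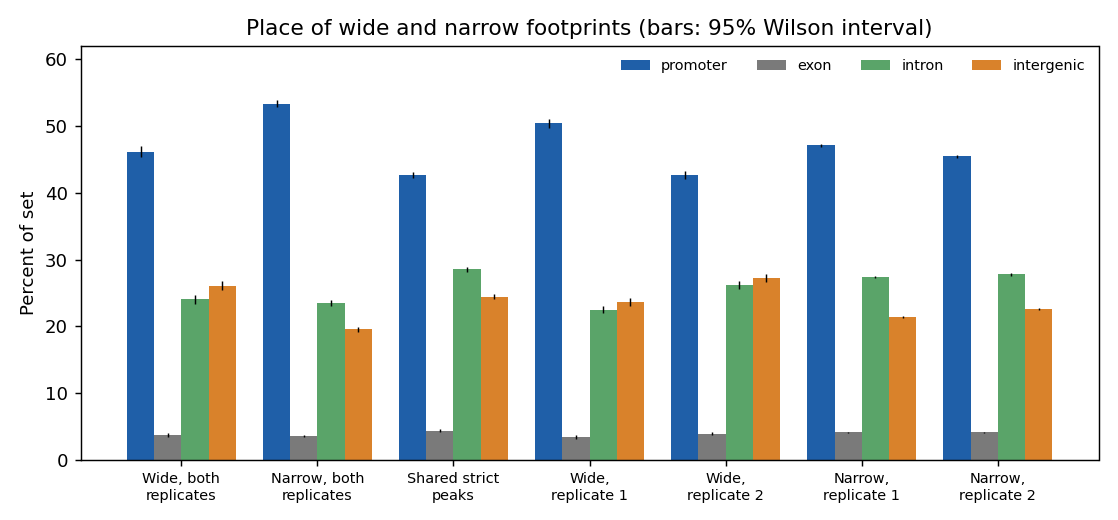
Percent of each set (y axis) whose midpoint lies at a promoter, in an exon, in an intron or between genes, for wide and narrow footprints found in both replicates, for shared strict peaks, and for the entries of each replicate alone; bars carry 95% Wilson intervals. Wide footprints of both replicates are at promoters in 46.1% and narrow ones in 53.4%, but wide entries of replicate 1 alone are higher (50.4%) than its narrow ones (47.1%).

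Place varied more within the wide footprints than between wide and narrow ones. The promoter share was 35.5% at a mean width of 30 to 31 bp, rose to 62.2% at 36 to 37 bp, fell to 33.1% at 46 to 47 bp and reached 73.6% at 50 bp or more. At promoters, wide footprints lay on the upstream side of the TSS: 75.9% of the 6644 were upstream, with a median position of 44 bp upstream (quartiles at 116 and 2 bp upstream), and 47.3% fell in the 100 bp just before the start. Narrow promoter footprints were centred on the TSS, with 50.4% upstream, a median position 1 bp upstream and 23.4% in those 100 bp. The 25 bp just before the TSS held 16.2% of wide and 8.91% of narrow promoter footprints, and the stretch from 25 to 50 bp after it held 2.72% and 6.40%. These positions are relative to the nearest annotated start of any gene type. Wide footprints outside promoters had a median distance of 7725 bp from a TSS, and narrow ones 8429 bp.

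**Figure D3:**
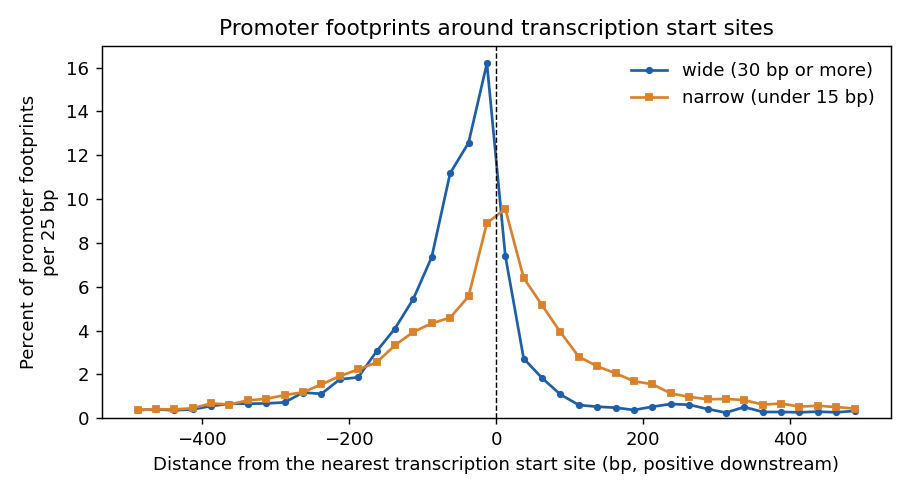
Percent of promoter footprints per 25 bp (y axis) against the distance to the nearest TSS in bp (x axis, negative upstream), for wide and narrow footprints found in both replicates. Wide footprints pile up before the start, with 16.2% in the last 25 bp before it, and are scarce beyond 50 bp after it, where narrow footprints still occur.

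By chromosome, the wide share of matched footprints ran from 11.2% on the X chromosome to 13.8% on chromosome 14; chromosome Y, with few footprints, is left aside. Density followed how much of a chromosome was footprinted, from 1.59 wide footprints per Mb on X to 10.2 per Mb on chromosome 11.

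The score of the strict peak that held the footprint was higher for wide than for narrow footprints. Scores are the submitters' signal values per peak, on a scale that the sources used here do not state. The score is not independent of the rule, since more cuts make a footprint easier to call, so the values below are descriptions. Of the wide footprints, 91.9% lay in strict peaks of both replicates and 2.99% in none, against 60.96% and 19.96% of narrow ones. Among footprints within strict peaks, the median in replicate 1 was 4.13 (quartiles 1.99 and 10.0) for wide footprints, 2.89 for narrow ones and 1.58 over all strict peaks. In replicate 2 it was 4.03 (2.33 and 7.73) for wide, 2.19 for narrow and 1.37 over all strict peaks. On the mean score of both replicates the wide median was 1.54 times the narrow median.

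The difference was greatest at promoters. For wide footprints at promoters the medians were 10.4 (replicate 1) and 7.91 (replicate 2), against 5.14 and 3.48 for narrow promoter footprints. In introns the wide medians were 2.19 and 2.55 and the narrow ones 1.77 and 1.52, and between genes they were 2.47 and 2.84 against 1.80 and 1.61. Wide footprints of 50 bp or more had medians of 11.96 and 9.05.

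Few peaks held a wide footprint, and the share rose with the score. Of the 53792 overlaps of strict peaks of both replicates, 12082 (22.5%) held at least 1 wide footprint, 1056 held 2 or more, and none held over 4. The share was 0.892% in the lowest decile of overlaps by mean score and 51.7% in the highest. It was 26.1% for peaks between genes and 21.4% for peaks at promoters.

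At the threshold itself, 1029 wide footprints measured 30 or 31 bp in both replicates and 870 matched footprints measured 28 or 29 bp in both. Their median scores were 2.75 and 2.90 just inside, in replicate 1 and replicate 2, and 2.58 and 2.73 just outside. The CTCF consensus was in 24.3% of the windows just inside and 20.7% just outside, and promoters held 35.96% and 43.0%.

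Motif content was read in windows of 50 bp centred on each footprint, so that wide and narrow footprints were searched over the same length. Matches to 44 consensus sequences were counted on both strands, without mismatch, and the same was done in 50 bp windows tiled over the shared strict peaks. The CTCF consensus stood apart: it was in 14.9% of wide windows (2144, interval 14.3 to 15.5%) and 0.452% of narrow windows (0.393 to 0.520%), a ratio of 32.9. The tiled windows held it in 1.62%. The reversed consensus, which has the same letters in the opposite order, matched 0 wide windows, which allows a share of up to 0.0208% (3 counts, counting error only). In single replicates the wide share was 12.9% and 13.6% and the narrow share 0.607% and 0.608%.

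The CTCF share was higher away from promoters, at 23.7% of wide and 0.841% of narrow footprints, than at promoters, at 4.59% and 0.112%. It was highest in peaks of medium score: by quartile of the wide footprints' mean score it was 21.03%, 26.6%, 14.4% and 1.87%, against 0.781%, 0.592%, 0.243% and 0.0688% for narrow footprints in the same score ranges. The consensus is strict. With 1 mismatch allowed, a setting added after the data were seen, 42.2% of all wide windows and 65.7% of those outside promoters held it, against 2.24% of narrow windows, 4.89% of tiled windows and 0.174% for the reversed consensus in wide windows. Of the exact CTCF matches inside wide footprints, 16.4% overlapped a match to the E-box of E proteins (CACCTG or CAGCTG), which shares letters with some forms of the CTCF consensus.

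ZNF143, a zinc finger protein of promoters, came next among the consensus sequences in 0.5% or more of wide windows, with 1.67% of wide and 0.141% of narrow windows (ratio 11.9; 0.254% of tiled windows). Of its 241 wide windows, 228 were at promoters. REST, a repressor of neuronal genes, is under that limit, with 24 wide windows and a ratio of 18.1 that rests on only 4 narrow windows. In single replicates REST was in 0.170% and 0.206% of wide and 0.0311% and 0.0231% of narrow entries. In 31.2% of the ZNF143 matches inside wide footprints the letters overlapped a match to the Ikaros consensus CTGGGAA on the other strand. The cyclic AMP response element bound by CREB and ATF proteins, TGACGTCA or TGACGTAA, was in 1.51% of wide and 0.173% of narrow windows (ratio 8.75; 0.348% of tiled windows), and 195 of the 218 were at promoters. Its reversed consensus was also higher in wide windows, at 0.701% against 0.203%. That reversed consensus holds the letters TGCAGT, a form of the word TGCANT shown above in CTCF footprints. It is therefore not a neutral background here.

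Further motifs had smaller ratios. NRF1, a regulator of nuclear genes of mitochondrial function, had its consensus in 2.03% of wide and 0.724% of narrow windows (0.754% of tiled windows). GGGCGGG, the GC box of the SP and KLF families, was in 11.4% and 5.62% (5.96% of tiled windows); it reads the same reversed, so the reversed consensus gives no background for it. The CCAAT box bound by NF-Y (CCAATC or CCAATG, each followed by A or G) was in 3.48% and 2.24% (2.53% of tiled windows). For E2F, the regulator of cell cycle genes (TTCGCGC or TTGGCGC), the shares were 1.20% and 0.763%, with 0.765% of tiled windows. For YY1 (AAAATGGC or AAGATGGC) they were 1.24% and 0.791%, with 0.684% of tiled windows. The E2F and YY1 differences were larger outside promoters, at 0.954% and 0.262% for E2F and 1.55% and 0.50% for YY1. At promoters the E2F shares were 1.49% and 1.20%. TEAD (1.66% and 1.44%, tiled windows 1.60%) and Ikaros (1.91% and 1.75%, tiled windows 1.67%) had intervals that overlapped between wide and narrow footprints, and both ratios were below 1 outside promoters. The GC box and the CCAAT box were also not more frequent in wide windows there, with 1.51% and 1.90% for the former and 1.21% and 1.25% for the latter, and YY1 was lower in wide than in narrow windows at promoters, with 0.873% and 1.05%.

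Some consensus sequences were less frequent in wide than in narrow windows, several of them of factors of blood cell development. Among those in 0.5% or more of wide windows, the lowest ratio was that of PU.1 (AAGGAAGT or GAGGAAGT), the regulator of myeloid and B cell genes, with 0.50% of wide and 1.28% of narrow windows (1.16% of tiled windows). The GATA family, with the letters AGATAA or TGATAA, had 0.799% and 1.85% (1.77% of tiled windows). TCF/LEF (CTTTGAA or CTTTGAT), the family of TCF-1 in thymocytes, had 0.715% and 1.62% (1.31% of tiled windows). RUNX (TGCGGTT or TGTGGTT), needed at several steps of T cell maturation, had 1.25% and 2.28% (1.82% of tiled windows), and the p53 half-site had 0.535% and 1.10% (1.21% of tiled windows). All 5 were lower in wide than in narrow entries in each replicate alone; for RUNX the shares were 1.61% and 1.42% of wide entries and 1.97% and 2.14% of narrow ones. Outside promoters the RUNX shares were 1.65% and 3.54%. The reversed consensus was also less frequent in wide windows for PU.1 (0.243% and 0.468%), TCF/LEF (0.507% and 0.895%) and the p53 half-site (0.243% and 0.390%), and was close to even for GATA (1.32% and 1.45%) and RUNX (0.639% and 0.641%). Some other motifs of blood cells had ratios near 1, namely MYB (0.923), the E-box of E proteins (0.955), ETS (0.956) and Ikaros (1.09). Another ETS consensus, with more forms, was in 3.38% of wide and 5.58% of narrow windows (ratio 0.605). Its form AGGAAGT lies within both PU.1 forms, so each PU.1 match is also a match to it. NF-kB (0.677), NFAT (0.725) and C/EBP (0.770) also had ratios below 1. Under the 0.5% limit, ratios below that of PU.1 were those of TBX (0.369), IRF (0.261), MEF2 (0.211) and joined ETS and RUNX sites (0.188). These rest on 12, 18, 7 and 2 wide windows. Outside promoters the ETS shares were 0.400% and 1.04%, and with the other ETS consensus 1.95% and 6.72%. At promoters both were higher in wide windows, at 3.82% and 2.97%, and at 5.04% and 4.58%.

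Of the 44 consensus sequences, 24 were in 0.5% or more of wide windows; 11 of these had a ratio above 1 and 13 below. Their median ratio was 0.955, and that of their reversed consensus sequences was 0.787. Any listed motif was found in 54.0% of wide and 44.2% of narrow windows, and the median number of listed motifs per window was 1 and 0. Nearly all CTCF matches lay inside the footprint itself: counted only inside both entries, 14.9% of wide footprints held CTCF and 10.2% the GC box, and 46.1% held any listed motif.

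Motifs were not spread evenly over the widths. The CTCF share was 23.6% at 30 to 31 bp, fell to 8.43% at 38 to 39 bp and rose again to 15.5% at 46 to 47 bp. With 1 mismatch allowed the same shares were 56.0%, 27.8% and 52.1%. ZNF143 and the cyclic AMP response element had their highest shares in between, at 4.30% and 2.92% of footprints of 36 to 37 bp. The GC box reached 18.7% at 38 to 39 bp and 26.7% at 50 bp or more, and the CCAAT box 13.2% at 50 bp or more, where CTCF was at 3.19%.

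**Figure D4:**
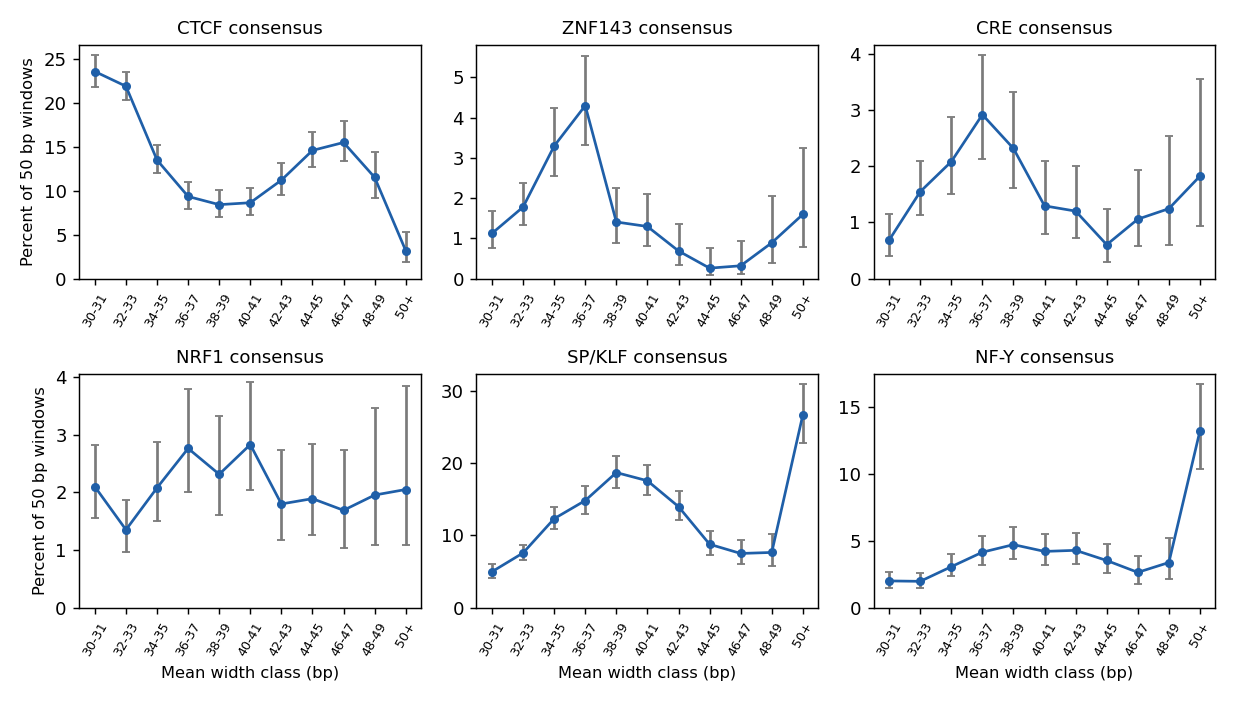
Percent of 50 bp windows with a consensus match (y axes, each with its own scale) by mean width class in bp (x axes), for 6 consensus sequences; bars are 95% Wilson intervals, which cover counting error only. CTCF is highest at 30 to 31 bp (23.6%) and rises again to 15.5% at 46 to 47 bp, ZNF143 and CRE are highest at 36 to 37 bp, and SP/KLF and NF-Y are highest at 50 bp or more.

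Where a wide footprint held a single CTCF match, the 2 width classes differed mainly in the distance from the footprint's start to the match. In the 1408 footprints under 38 bp, the footprint began a median of 6 bp before the consensus and ended 14 bp after it, in both replicates. In the 736 of 38 bp or more, it began 22 bp before the consensus in both replicates and ended 11 bp after it in replicate 1 and 12 bp in replicate 2. An overhang before the consensus of 10 bp or more, averaged over the replicates, was present in 11.01% of the first class and 99.3% of the second. An overhang of that size after the consensus was present in 96.5% and 70.1%, so the end side of the wider class was slightly shorter. The additional length lay before the consensus, read on its own strand. The classes were alike in strand (49.4% and 49.05% on the plus strand), in promoter share (13.1% and 16.3%) and in peak score, with medians of 2.40 and 2.83 in replicates 1 and 2 for the first class and 2.69 and 3.16 for the second. Because the class is defined by width, that the wider class reached further is not a finding; the side on which it did so was not part of the rule.

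**Figure D5:**
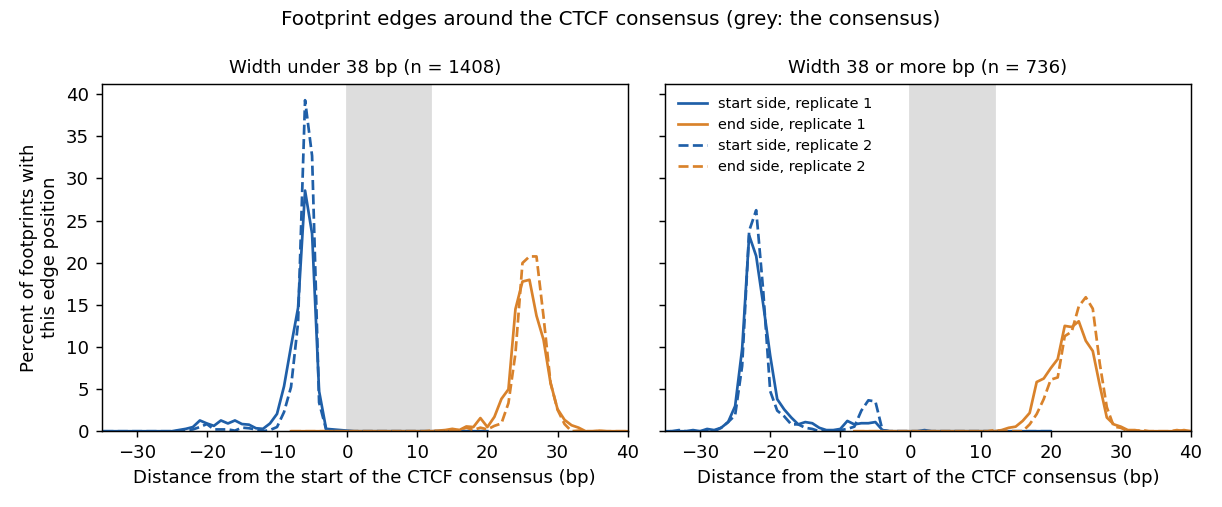
Percent of footprints (y axis) whose edge lies at each distance in bp from the start of the CTCF consensus (x axis; grey band, the consensus of 12 bp), for footprints under 38 bp (left) and of 38 bp or more (right); blue, edge on the start side; orange, edge on the end side; solid and dashed lines, replicates 1 and 2. The end side is a median of 14 bp after the consensus on the left and 11 to 12 bp on the right, and the start side moves from 6 bp to 22 bp before it.

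The bases in the additional stretch differed between the classes. CTCF has a known second contact upstream of its core motif, made by the last zinc fingers of its array. The letters TGCANT, picked after the base composition was seen, began 17 bp before the consensus, within 2 bp, in 25.8% of the footprints of 38 bp or more (190 of 736, interval 22.8 to 29.1%) and in 2.27% of those under 38 bp (32 of 1408, interval 1.61 to 3.19%). The word and its distance came from these same footprints, so the difference between the classes is a description and not a test. Whether the known contact accounts for it was not tested. At the same distance after the consensus the word was in 0.408% of the wider and 0.426% of the narrower class. Seen from the word, 85.6% of the 222 CTCF footprints that had it were 38 bp or more, against 28.4% of the 1922 without it. In windows with less than 50% of bases masked as repeat the shares were 23.4% and 2.05%. The Mafa, Twistnb and Ddx54 sequences above are of this kind, and the Scap, Kif1b and Dgkz footprints begin closer to the consensus.

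Around single ZNF143 matches the footprint was also uneven, beginning a median of 6 bp before the consensus in replicate 1 and 5 bp in replicate 2 and ending 18 bp after it in both.

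The windows were also searched with no list of motifs. Of all words of 8 bases, counted on both strands, 1045 were in 0.5% or more of wide windows. Of these, 506 were over 2 times and 26 over 10 times as frequent there as in narrow windows. The limit was set on wide windows alone, so words frequent only in narrow windows could not enter. The 10 with the highest ratios were ATGCAGTA (17.8), GTACTGCA (16.8), ATCTGATG (16.6), GCAGTACC (16.6), ACTGCATG (15.6), AGAGGGCA (14.4), GCCACCTA (13.9), AGGGGGCA (13.2), ATGCCCTC (13.1) and ATGCAGTG (12.3). AGAGGGCA was the most frequent of these, in 8.77% of wide and 0.607% of narrow windows. Between 63.4% and 91.3% of the wide windows with any of the 10 words held the CTCF consensus with at most 1 mismatch. Several of the words sat in repeats: 92.6% of the windows with ATCTGATG and 71.8% of those with ATGCAGTA had 50% or more of their bases soft-masked, against 10.6% of all wide windows, while 1.63% of those with GCCACCTA were. TGACGTCA, the cyclic AMP response element, ranked 16th.

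In general sequence features wide and narrow footprints were close. The median GC content of the window was 60% for wide and 58% for narrow footprints, and the mean number of CpG pairs 2.87 and 2.67. Soft-masked repeat made up 50% or more of the window in 10.6% and 8.29%, and in 14.7% of wide footprints of 38 bp or more. Uniqueness was measured by words of 31 bases: in 93.9% of wide windows every word was unique in the genome, and in 0.938% none was, against 96.2% and 1.16% of narrow windows.

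The 10 widest members measured between 66 and 85 bp, and 8 of them were at promoters. The widest, 70 bp upstream of the TSS of Nfat5, a transcription factor of the response to osmotic stress, measured 85 bp in both replicates with peak scores of 19.7 and 12.8. It is shown because it is the widest footprint of the series found in both replicates, and no capitals are used.
Nfat5, chr8:107293358-107293442, plus strand: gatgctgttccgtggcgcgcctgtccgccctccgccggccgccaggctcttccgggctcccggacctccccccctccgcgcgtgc

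The next was in an exon of Gdf15, which encodes a stress cytokine, at 82 bp and 81 bp with scores of 14.9 and 7.92. Those of Parp2 (76 and 75 bp), a DNA repair enzyme, Zmynd8 (72 bp in both), a reader of histone marks, and Nup153 (72 and 70 bp), a nuclear pore protein, lay 16, 4 and 79 bp upstream of a TSS. A member of 78 and 66 bp lay where Fen1, the flap endonuclease of DNA replication, and Tmem258 overlap. Maco1 (71 bp in both), Tmem218 (70 and 72 bp) and Pdcl3 (69 and 67 bp) completed those near genes. The Pdcl3 window held an NRF1 match, but the footprint did not meet the conditions for the first set of sequences. The remaining one, of 74 and 70 bp on chromosome 8, lay in sequence with 0% unique words, so that its signal cannot be placed at a single site.

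The highest peaks were in part of that kind. Of the members in the 10 highest strict peaks, 3 lay in introns of Mid1 with 0% unique words, among them the highest scores of any member, 90.3 in replicate 1 and 61.6 in replicate 2. The members near Il31ra, Igf2bp3 and Gm21887 also had 0% unique words, and the member near Kpna1 had 40%. The other 3 were fully unique: Dynlt1b, a dynein light chain, with 49 bp in both replicates and scores of 64.7 and 52.0; Myo10, an unconventional myosin, with 60 and 59 bp and scores of 34.9 and 28.7; and Mplkip with 45 bp in both and scores of 33.9 and 27.6.

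Promoters of protein-coding genes could be compared gene by gene. Of 21911 such genes, 12918 had a strict peak within 1000 bp of a TSS in both replicates, and 5047 of these (39.1%, interval 38.2 to 39.9%) had at least 1 wide footprint there. Counts of genes with a wide footprint below are read beside that share. A footprint between opposite genes counts for both. The thymus label was checked by accessible promoters alone, to be read beside the 12918 of 21911 among all genes. All 12 markers of the T lineage had an accessible promoter. So did 3 of 7 markers of thymic epithelium, 4 of 6 of endothelium and fibroblasts, 2 of 5 erythroid, 1 of 5 B cell and 1 of 6 myeloid ones. The part of the other cell types in the footprints was not tested.

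Genes of T cell identity had shares below that of all accessible genes, though for the transcription factors the interval contains 39.1%. Of 25 transcription factors of the T lineage 8 had a wide footprint (32%, interval 17.2 to 51.6%). Of 26 accessible genes of the T cell receptor and its signalling 4 had one (15.4%, interval 6.15 to 33.5%). This was the only list of 15 whose interval did not contain 39.1%. The intervals cover counting error only and are no test over that many lists. At Lck, the kinase that starts signalling from the receptor, the wider of 2 wide footprints measured 39 bp in replicate 1 and 38 bp in replicate 2 and lay 158 bp upstream of a TSS, with scores of 8.69 and 7.58. At Cd3d, a chain of the receptor complex, it measured 33 and 31 bp, with scores of 8.36 and 5.32. The other 2 were Csk, which holds Lck in check (46 and 45 bp), and Rasgrp1, an activator of Ras (33 and 44 bp). Among the factors, Tox (47 and 48 bp), Bach2 (46 bp in both) and Egr1 (46 and 33 bp) had wide footprints, and that of Elf1 (38 and 40 bp) lay at the start of its neighbour Wbp4. Narrow footprints were present at 96.0% of the accessible factor genes and 92.3% of the receptor and signalling genes, against 77.4% of all accessible genes.

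Housekeeping groups lay on both sides of the share of all genes. Of 31 genes of the proteasome 14 had a wide footprint (45.2%), of 36 respiratory chain genes 17 (47.2%), of 30 replication genes 13 (43.3%), of 45 ribosomal protein genes 15 (33.3%) and of 15 genes of cohesin and chromatin architecture 7 (46.7%); the interval of each of these 5 lists contains 39.1%. Of 16 genes of thymocyte survival and death 10 had one (62.5%, interval 38.6 to 81.5%), and of 14 genes of MHC class I presentation 7 (50%, interval 26.8 to 73.2%). Psmb3 had one of 69 and 51 bp at 60 bp upstream, Rps7 one of 53 and 54 bp at 65 bp upstream, Ndufa8 one of 49 and 41 bp with an NRF1 match, and Apaf1, the scaffold of the apoptosome, one of 59 and 58 bp next to the start of Ikbip, with scores of 24.9 and 17.4. At Bcl2, the inhibitor of apoptosis, a member of 48 bp in both replicates lay 663 bp downstream of a TSS in a weaker peak, with scores of 2.39 and 2.55. Stag1, a cohesin subunit, had one of 46 bp in both replicates with a CTCF match, with scores of 22.3 and 15.5. Psmb9 and Tap1, which make and carry peptides for MHC class I, share 1 of 40 bp between them, with scores of 22.6 and 15.2.

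Marker genes of other cell types gave small numbers, with 2 of 5 accessible B cell genes, 0 of 4 myeloid (interval up to 48.99%), 2 of 3 epithelial, 1 of 2 erythroid, 2 of 6 of endothelium and fibroblasts and 1 of 4 hepatocyte and neuron genes. At Aire, which drives expression of tissue antigens in thymic epithelium, the member measured 44 and 47 bp, lay 11 bp downstream of a TSS, held a CTCF match and had scores of 5.23 and 3.99. That of Ccl25, an epithelial chemokine, lay at the start of its neighbour Elavl1.

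Hexim2, an inhibitor of the elongation factor P-TEFb, had the most wide footprints near its TSSs, with 6. It was followed by genes with 5 each, namely Dyrk1a, Fem1c, Fntb, Jun, Mark2, Pop7, Rab11b, Rnf44 and Samd4b. At Jun, a subunit of AP-1, the widest measured 38 bp in both replicates, with scores of 21.8 and 16.5. At Hexim2 it measured 49 and 50 bp, with scores of 24.0 and 17.7, and held a GC box.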

How the data were processed

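DNase-seq of whole thymus was analysed in 2 samples of 1 group. Coordinates are mm10, per the labels. The software that aligned reads and called peaks and footprints is not given in the sources used here. The score of the deposited footprints is 0.01 in each row, so that file served for positions alone. The peak score is the authors' signal per peak, in column 7 of the deposited lists, on an unstated scale; the shorter list of each sample was called strict (63832 and 67929 entries, 62230 and 66839 after joining overlapping ones and keeping the highest score). Depth per sample is unknown, so shares carry 95% Wilson intervals for counting error only.

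Footprints of 30 bp or more were matched between samples at 50% reciprocal overlap, each entry once, and compared with footprints under 15 bp matched in the same way. Place was given by midpoint in the order promoter (within 1000 bp of a GENCODE M21 TSS), exon, intron, intergenic. A peak held a footprint when it held its midpoint. Members, gene lists, motifs and alternatives were chosen with earlier results of these data known. Named items followed rules: the 10 widest members, the widest member in each of the 10 highest peaks, the 10 genes with most members, up to 4 genes per list by width, the 10 highest and 5 lowest motif ratios among motifs in 0.5% or more of wide windows, and the 10 highest words of 8 bases; the text gives only some of those named per list. The CTCF examples by width and the word TGCANT were picked after values were seen. Sequences came from GRCm38.p6, where repeats are soft-masked; UTRs and chromosome 18 were left out of the printed sequences. Matching and motif search were tested on simulated data. No test was run, since samples of 1 group give none. Python 3.11.15, numpy 2.4.6, pandas 2.3.3, numba 0.67.0 and matplotlib 3.10.9 were used.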

Additional observations from a re-analysis of the deposited data

How the results depend on the processing

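Of 72 alternative values for 11 results, 36 stayed within the spread between the replicates taken alone (for counts, within 1.5 times), and 51 within 1.5 times of the reported value. The number of wide footprints was 24188 with a minimum of 25 bp and 4520 with 40 bp. The promoter share was 55.2% within 2500 bp of a TSS. The promoter share of wide minus narrow footprints, reported as -7.21 points, was -17.7 with narrow footprints reweighted to the score deciles of the wide ones, and 3.29 without replicate 2 and -2.75 without replicate 1, so its direction depends on the replicate. The score ratio of wide over narrow footprints stayed above 1 throughout: 1.73 and 1.37 with narrow limits of 10 and 20 bp, 1.82 with the looser peaks, 2.11 at promoters only, 1.41 outside them, 1.41 and 1.63 with minimum widths of 25 and 40 bp, and 1.96 to 2.00 with a replicate left out. The CTCF share was 16.0% without windows soft-masked at 50% of bases or more, 12.9 to 13.6% with a replicate left out, and 42.2% and 57.5% with 1 and 2 mismatches, both added after seeing the data. Wide minus narrow, it was 13.4 points in windows of 100 bp, 15.5 without masked windows, 4.48 at promoters only, 22.9 outside them, 15.6 after reweighting to score deciles, 12.3 to 13.02 with a replicate left out, and 39.97 and 48.98 with 1 and 2 mismatches. The median number of motifs per window was 0 in windows of 30 bp. The share of accessible promoters with a wide footprint was 37.0% within 500 bp, 42.9% within 2500 bp, 36.8% with the looser peaks and 50.4 to 51.6% with a replicate left out, where any wide entry counts. The median GC content was 58 to 60% with a replicate left out. Where a value moved, the cause was not tested.

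No paired analysis was possible because there is 1 group. The limits are these. The depth is unknown, so footprints missed for lack of cuts cannot be counted. Narrow footprints found in both replicates are 20.1% and 21.4% of the narrow entries, a selected subset. Matches to a consensus depend on how strict it is.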
